A study of Mus musculus with 12 samples.

Results

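The circadian clock genes described here are Clock, Arntl, Per1, Per2, Per3, Cry1, Cry2, Nr1d1, Nr1d2 and Dbp. They were taken by gene symbol from a table of 47069 genes, each of the 10 symbols matched 1 row, and all 10 passed the filter on low values. RNA was sequenced from mice at postnatal day 14, with 3 libraries in each of 4 groups, isolated hepatocytes or whole liver from WT or Cdk1 Liv-/- animals. PolyA RNA was read in single-end reads of 75 bp. Cdk1 Liv-/- mice carry Cdk1 flox/flox alleles and Albumin-Cre, which is active in hepatocytes. By in situ hybridization the study found Cdk1 RNA only in interstitial cells of the Cdk1 Liv-/- liver. Which of the other liver cells keep Cdk1 was not tested here. The mice were housed in a cycle of 12 h light and 12 h dark. The time of day at which each animal was collected is not given in the sources used here, so a difference in that time between groups cannot be told apart from one in genotype or compartment. Values are FPKM, fragments scaled to transcript length and library size. A gene was called at a Benjamini-Hochberg adjusted p of at most 0.1 from limma, and log2 differences are on the log2(FPKM + 0.5) scale, Cdk1 Liv-/- minus WT or hepatocytes minus whole liver.

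The circadian clock is a loop of transcription and repression with a period of about a day. CLOCK and ARNTL (also called BMAL1) bind E-box sequences as a pair and activate the Per, Cry, Nr1d and Dbp genes. PER and CRY proteins return to the nucleus and repress that activation, while the nuclear receptors NR1D1 and NR1D2 (REV-ERB alpha and beta) repress Arntl, so that Arntl and Dbp peak at opposite times of day in adult liver. In liver the loop drives daily rhythms of bile acid, lipid and drug metabolism.

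Cdk1 itself was lower in every Cdk1 Liv-/- library. It was at 27.88, 20.38 and 28.16 FPKM in WT hepatocytes and at 9.68, 11.8 and 6.87 FPKM in Cdk1 Liv-/- hepatocytes. In whole liver it was at 25.32, 22.69 and 21.5 FPKM in WT and at 11.66, 12.07 and 14.17 FPKM in Cdk1 Liv-/-. By qPCR the study found hardly any Cdk1 mRNA in Cdk1 Liv-/- hepatocytes of this age, and it detected no CDK1 protein in them. The FPKM values are for the gene as a whole, and reads over the removed exon were not examined here. The study's methods state that male mice were used, but in Cdk1 Liv-/- whole liver replicate 3 Xist, the RNA that coats the inactive X chromosome, was at 158.32 FPKM while Ddx3y, Eif2s3y, Uty and Kdm5d, which lie on the Y chromosome, had no reads listed (0 FPKM). In the other 11 libraries Xist did not exceed 0.14 FPKM, with a sum of 48.4 to 62.1 FPKM for those 4 Y genes. Calls that involve this library were therefore also made without it. Cdk1 fell by 1.40 on the log2 scale in hepatocytes (adjusted p = 0.0148 from limma) and by 0.85 in whole liver (adjusted p = 0.00353 from limma), and both calls held under all 14 alternatives.

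The members' mean levels over the 12 libraries, which FPKM puts on a scale per transcript length, ran from 3.00 FPKM for Clock to 13.9 FPKM for Per1. Dbp (11.6 FPKM), Nr1d2 (11 FPKM), Nr1d1 (8.37 FPKM) and Cry2 (8.36 FPKM) followed Per1. Per3 (7.58 FPKM), Arntl (7.12 FPKM), Cry1 (5.76 FPKM) and Per2 (4.50 FPKM) lay above Clock. The order was not the same in every group. In Cdk1 Liv-/- hepatocytes the mean of Nr1d2 (15.1 FPKM) was above that of Per1 (13.6 FPKM), and Nr1d1 averaged 13.5 FPKM there and 4.70 FPKM in WT hepatocytes. Neighbours in this order were not tested against each other, and their ranges over the libraries overlapped. An FPKM of 1 on 1 kb of transcript stood for an estimated 34.7 to 49.9 reads over the 12 libraries. At these depths 2.59 FPKM, the lowest member value, would stand for 89.7 to 129 reads on each kb of transcript. The counting error would be 8.80% to 10.6% for a transcript of 1 kb, and smaller for a longer one.

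**Figure D1:**
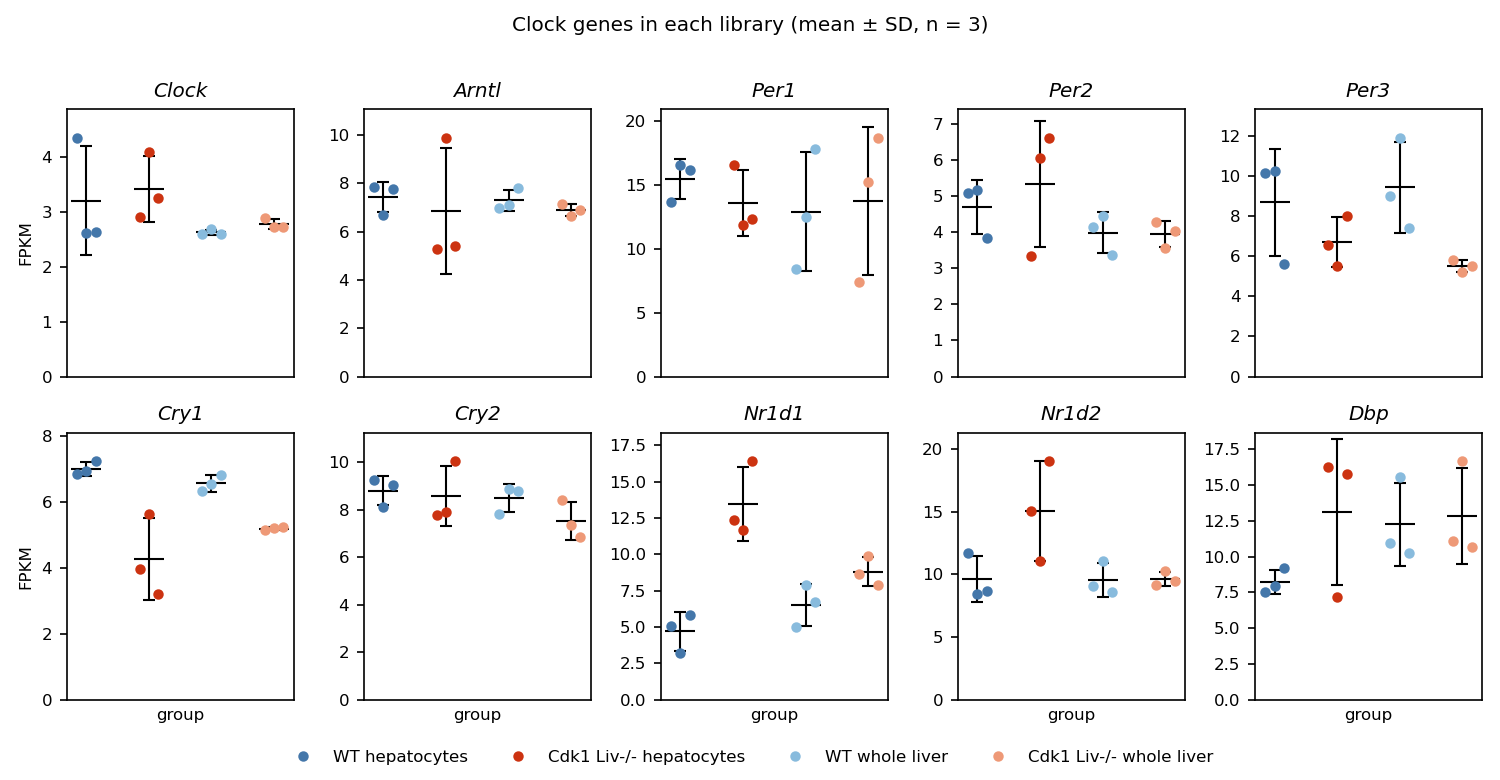
FPKM of the 10 clock genes in each of the 12 libraries, by group, with points for libraries and bars for the mean and SD (n = 3). Nr1d1 is highest and Cry1 lowest in the Cdk1 Liv-/- hepatocyte libraries as a group, with Nr1d1 at 11.68 to 16.4 FPKM there.

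In isolated hepatocytes the question was which clock genes differed between Cdk1 Liv-/- and WT libraries. Nr1d1 rose and Cry1 fell, and the other 8 members did not pass the test. With 2 of 10 members called (20%), the share was close to the 18.7% of all 17386 genes tested that were called in either direction. With 1 library left out, 8.97% to 14.4% of all genes were called. Of these members 1 was higher, where 12.1% of all genes were, and 1 was lower, where 6.61% were. With a log2 difference of at least 1 in size also required, 1 member was called, against 6.37% of all genes. The median log2 difference of the members was 0.029, beside 0.049 for all genes. Groups did not overlap for these 2 members, and for 34% of all genes.

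Nr1d1 (ENSMUSG00000020889, GRCm38 chr11:98767932-98775333, minus strand) encodes the repressor of Arntl. It was at 5.06, 3.22 and 5.83 FPKM in WT hepatocytes and at 12.34, 11.68 and 16.4 FPKM in Cdk1 Liv-/- hepatocytes. Every Cdk1 Liv-/- library lay above every WT library. The log2 difference was 1.45 (standard error 0.23, adjusted p = 0.0160 from limma), a fold of 2.72 on the scale of log2(FPKM + 0.5). The call held under all 14 alternatives, with log2 differences from 1.22 to 1.60 and adjusted p from 0.00854 to 0.0577. The gene shares 1075 bases with Thra, a thyroid hormone receptor gene on the opposite strand. The library kit keeps strand, but whether the counting used it is not given in the sources used here. Thra was at 7.41, 5.34 and 8.72 FPKM in WT and at 5.31, 4.09 and 4.61 FPKM in Cdk1 Liv-/- hepatocytes, opposite in direction to Nr1d1, and did not pass the test (adjusted p = 0.134 from limma, 0.0661 to 0.283 over the alternatives), though it passed without WT replicate 2 (0.0661) and with size factors (0.0883).

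Cry1 (ENSMUSG00000020038, GRCm38 chr10:85131700-85185064, minus strand), which encodes a repressor of CLOCK and ARNTL, was at 6.84, 6.95 and 7.24 FPKM in WT and at 3.97, 5.63 and 3.21 FPKM in Cdk1 Liv-/- hepatocytes. The groups did not overlap, and the WT libraries lay close together. With a standard error of 0.20, Cry1 fell by 0.69 (adjusted p = 0.0778 from limma). The call held under 7 of 14 alternatives, with adjusted p from 0.0292 to 0.174. It was lost with no filter on low values (0.151), with a replicate block (0.152) and with any 1 WT library left out (0.174, 0.155 and 0.169 for replicates 1 to 3), as it was when Cdk1 Liv-/- replicate 1 (0.170) or 3 (0.159) was left out, all adjusted p for Cry1 from limma.

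The promoters of the members called between genotypes are shown, with a window of that of Arntl, because the clock's own factors act on these genes through short elements. The table of RefSeq promoters used here, on GRCm38.p6, held 9 of the 10 members, all but Per2. Each of the first 3 runs below is the 250 bases before the transcription start on the minus strand, at chr11:98775378-98775627 for Nr1d1, chr10:85185055-85185304 for Cry1 and chr4:151044666-151044915 for Per3. Capitals mark matches on either strand to the E-box CACGTG or the E-prime box CACGTT in Nr1d1 and Cry1, and to the D-box, TTATGTAA or TTACGTAA, in Per3.
Nr1d1: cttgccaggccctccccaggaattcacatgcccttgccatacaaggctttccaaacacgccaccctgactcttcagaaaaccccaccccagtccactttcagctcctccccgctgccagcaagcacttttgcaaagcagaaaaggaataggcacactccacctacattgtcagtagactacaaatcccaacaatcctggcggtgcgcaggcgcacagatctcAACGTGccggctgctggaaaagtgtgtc
Cry1: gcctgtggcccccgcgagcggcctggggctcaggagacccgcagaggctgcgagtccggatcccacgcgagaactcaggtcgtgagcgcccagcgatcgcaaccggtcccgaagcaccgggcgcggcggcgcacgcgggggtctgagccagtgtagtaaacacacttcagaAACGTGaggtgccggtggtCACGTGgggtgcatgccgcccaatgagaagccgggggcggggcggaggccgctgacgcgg
Per3: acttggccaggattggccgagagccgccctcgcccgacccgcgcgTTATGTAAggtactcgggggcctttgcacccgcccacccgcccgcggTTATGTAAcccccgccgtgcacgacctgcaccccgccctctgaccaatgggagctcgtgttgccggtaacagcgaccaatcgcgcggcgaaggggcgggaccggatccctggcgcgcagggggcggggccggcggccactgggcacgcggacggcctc
In Arntl a match to the RORE, an element bound by NR1D1, begins 26 bases after the start, and is in capitals in a window of 30 bases at chr7:113207521-113207550 on the plus strand.
Arntl: catttagggaaggcagAAAGTAGGTCAggg
Of 32851 promoters of 300 bases, 7.15% held the E-box, 4.69% the E-prime box, 1.06% a D-box, 0.384% the RORE and 1.79% the cyclic AMP element TGACGTCA. Among the 9 members, the E-box was in 2 (Cry1 and Per1), the E-prime box in 3 (Cry1, Cry2 and Nr1d1), a D-box in 1 (Per3), the RORE in 1 (Arntl) and the cyclic AMP element in 0. A match describes the letters in this window and says nothing about binding.

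Nr1d2, the other REV-ERB gene, was at 11.75, 8.46 and 8.69 FPKM in WT and at 15.09, 11.1 and 19.05 FPKM in Cdk1 Liv-/- hepatocytes. The groups overlapped, and the log2 difference of 0.60 did not pass (adjusted p = 0.140 from limma). Dbp, an activator of output genes, was at 7.56, 7.98 and 9.19 FPKM in WT and at 16.29, 7.2 and 15.81 FPKM in Cdk1 Liv-/- hepatocytes. In Cdk1 Liv-/- replicate 2 it lay below every WT library, and in the other 2 above them. The log2 difference of Dbp was 0.56 (adjusted p = 0.293 from limma). Without that library, singled out after its values were seen, the limma adjusted p was 0.0784 for Nr1d2 (0.0784 to 0.298 over the alternatives) and 0.0186 for Dbp (0.0186 to 0.549), and 4 members were called, where 13.1% of all genes were.

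Arntl, the activator, was at 7.85, 6.7 and 7.76 FPKM in WT and at 5.3, 9.88 and 5.41 FPKM in Cdk1 Liv-/- hepatocytes, with a log2 difference of -0.16 (adjusted p = 0.706 from limma). Its high value was again in Cdk1 Liv-/- replicate 2. Clock, Per1, Per2, Per3 and Cry2 had log2 differences between -0.32 and 0.13, with 95% intervals that all included 0. The interval for Per3 ran from -0.95 to 0.31 and that for Per2 from -0.51 to 0.77.

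**Figure D2:**
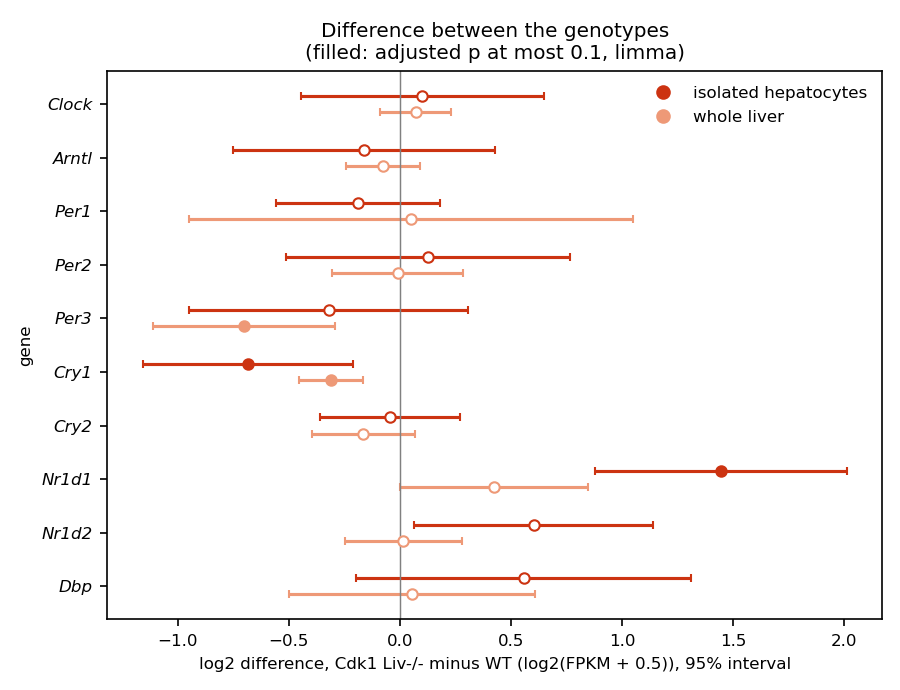
Log2 difference between Cdk1 Liv-/- and WT for each clock gene in isolated hepatocytes and whole liver, with 95% intervals and filled points for an adjusted p of at most 0.1. Nr1d1 in hepatocytes, at 1.45, is the highest point.

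In whole liver, where the other liver cells are present, Cry1 and Per3 fell and no member passed the test as higher. Here 2 of 10 members were called (20%), and 45.6% of all genes were called in either direction. Both members were lower, as were 7.53% of all genes, while 38% of all genes were higher. By limma 0 members were called higher, with 1 higher at an unadjusted p under 0.05 (Nr1d1) and 2 called higher by a 2-sample test with q-values. That test also called 3 members lower, and 61.1% of all genes in either direction. Neither called member reached a log2 difference of 1 in size, which 5.59% of all genes did with a call. The median log2 difference was 0.18 for all genes and 0.0029 for the members. After division by median-ratio size factors the median of all genes was 0.013, and 52.2% of the calls were higher, against 83.5% without that scaling.

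Cry1 was at 6.32, 6.56 and 6.81 FPKM in WT and at 5.14, 5.2 and 5.24 FPKM in Cdk1 Liv-/- whole liver. The groups did not overlap. With a standard error of 0.058, Cry1 fell by 0.31 (adjusted p = 0.0127 from limma), or by 0.49 relative to the median of all genes, and the call held under all 14 alternatives. Per3 (ENSMUSG00000028957, GRCm38 chr4:151003652-151044665, minus strand), a period gene, was at 9, 11.89 and 7.4 FPKM in WT and at 5.79, 5.23 and 5.5 FPKM in Cdk1 Liv-/- whole liver. The highest Cdk1 Liv-/- value was below the lowest WT value. Per3 fell by 0.70 (standard error 0.17, adjusted p = 0.0249 from limma), or by 0.88 relative to the median, and this call also held under all 14 alternatives, including the one without replicate 3 of Cdk1 Liv-/-. The annotation of Camta1, a transcription factor gene, spans Per3 on the same strand. Camta1 was at 4.08, 5.18 and 3.76 FPKM in WT and at 4.34, 3.37 and 3.83 FPKM in Cdk1 Liv-/- whole liver, a log2 difference of -0.15 (adjusted p = 0.438 from limma).

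Nr1d1 was at 4.97, 7.86 and 6.71 FPKM in WT and at 8.66, 9.86 and 7.9 FPKM in Cdk1 Liv-/- whole liver. The groups did not overlap, but the lowest Cdk1 Liv-/- value was close to the highest WT value. The log2 difference of 0.42, or 0.24 relative to the median of all genes, did not pass (adjusted p = 0.106 from limma, 0.0683 to 0.369 over the alternatives). It passed under 4 of 14 alternatives, which were a filter at a mean FPKM of 1 (0.0809), a replicate block (0.0942), the fit without WT replicate 2 (0.0683) and the 2-sample test (q = 0.0700). Thra, on the opposite strand, was at 8.87, 9.44 and 10.14 FPKM in WT and at 10.96, 11.76 and 10.37 FPKM in Cdk1 Liv-/- whole liver. Its groups did not overlap either, and its direction was that of Nr1d1 here. Thra rose by 0.21, or 0.027 relative to the median of all genes (adjusted p = 0.0814 from limma), called under 7 of 14 alternatives. The call on Thra was lost without WT replicates 1 (0.221) and 2 (0.170) and Cdk1 Liv-/- replicates 1 (0.142) and 2 (0.177), as it was with no filter (0.113), with a replicate block (0.153) and with size factors (0.981). Groups did not overlap for 4 of the 10 members (Clock, Per3, Cry1 and Nr1d1), and for 52.1% of all genes. The remaining members, Clock, Arntl, Per1, Per2, Cry2, Nr1d2 and Dbp, had log2 differences from -0.16 to 0.070. With size factors Arntl (log2 difference -0.28, limma adjusted p of 0.0470, and 0.0470 to 0.768 over the alternatives) and Cry2 (-0.37, 0.0399, and 0.0399 to 0.460 over the alternatives) were also called, both lower. Cry2 was called as well without Cdk1 Liv-/- replicate 1 (0.0908) and by the 2-sample test (q = 0.0997), which called Clock as higher too (q = 0.0437). Per1, an early-responding repressor, varied most within groups, from 8.46 to 17.8 FPKM in WT and from 7.37 to 18.69 FPKM in Cdk1 Liv-/-.

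Whether the genotype difference itself differed between the compartments was tested directly, by an interaction term fitted to the 12 libraries. For Nr1d1 the log2 difference was larger in hepatocytes than in whole liver by 1.02 (standard error 0.31, adjusted p = 0.0871 from limma). It was the 1 member called (10%), where 9.85% of all genes were called, 2.35% in that direction and 7.49% in the other. With size factors 52.7% of the calls over all genes were in that direction, against 23.9% without. With 1 library left out the share of all genes ran from 0.449% (WT whole liver replicate 1) to 15.2% (WT hepatocyte replicate 2). With a log2 difference of at least 1 in size, it was again the 1 member, beside 3.96% of all genes. The call held under 8 of 19 alternatives, with a log2 difference from 0.80 to 1.19 and adjusted p from 0.0669 to 0.173. Of the 12 libraries left out in turn it held without WT hepatocyte replicates 2 and 3 and Cdk1 Liv-/- hepatocyte replicate 2. It was lost without WT hepatocyte replicate 1 (0.116), Cdk1 Liv-/- hepatocyte replicates 1 (0.116) and 3 (0.151), WT whole liver replicates 1 (0.140), 2 (0.173) and 3 (0.150), and Cdk1 Liv-/- whole liver replicates 1 (0.125), 2 (0.139) and 3 (0.150), as it was with no filter (0.137) and with a replicate block (0.128). Without Cdk1 Liv-/- hepatocyte replicate 2 there were 3 calls (8.79% of all genes), Nr1d1, Cry1 (0.0542) and Nr1d2 (0.0844). For Cry1 the interaction was -0.38 (adjusted p = 0.306), and for Per3 it was 0.38 (adjusted p = 0.523), both from limma. Thra had an interaction of -0.76, opposite in direction to that of Nr1d1 (adjusted p = 0.0818 from limma, 0.0135 to 0.186 over the alternatives), called under 6 of 19 alternatives. Of the 12 libraries left out in turn, only the fits without WT hepatocyte replicate 2 (0.0135) and Cdk1 Liv-/- hepatocyte replicate 1 (0.0907) kept that call. The part of Thra in the Nr1d1 values was not tested. The lower value of Per3 in whole liver is therefore not shown to differ from that in hepatocytes.

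The compartments were also compared within each genotype. Isolated hepatocytes and snap frozen liver differ in cell makeup and in handling, which cannot be told apart, and whether both came from the same animals is not stated. In WT, 0 of 10 members were called by limma, where 1.52% of all genes were, 0.104% higher in hepatocytes, 1.42% lower and 0.466% with a log2 difference of at least 1 in size. The share of all genes rested on single libraries. It was 17.7% without WT hepatocyte replicate 3 and 0.00575% without replicate 1, with 0 members called in each fit without 1 library. At an unadjusted p under 0.05 there was 1 member, Dbp, and by a 2-sample test with q-values there were 0. Dbp was at 7.56, 7.98 and 9.19 FPKM in WT hepatocytes and at 10.95, 15.59 and 10.26 FPKM in WT whole liver, a log2 difference of -0.53 (adjusted p = 0.199 from limma). Groups did not overlap for 2 members (Cry1 and Dbp), and for 26% of all genes. In Cdk1 Liv-/- mice, Nr1d1 and Nr1d2 were higher in hepatocytes than in whole liver, by 0.58 and 0.59 on the log2 scale (adjusted p = 0.0315 and 0.0558 from limma). These 2 of 10 members (20%) compare with 44.7% of all genes called, 8.86% higher and 35.9% lower, and 11% with a log2 difference of at least 1 in size, which neither member had. With size factors 48.6% of the calls over all genes were higher, against 19.8% without that scaling. That fit called 5 members (41.5% of all genes), with Clock, Cry2 and Per3 besides Nr1d1 and Nr1d2. The 2-sample test with q-values called 3 (59.1% of all genes), Clock, Nr1d1 and Nr1d2. Groups did not overlap for 3 members (Clock, Nr1d1 and Nr1d2), and for 50.7% of all genes. Without Cdk1 Liv-/- whole liver replicate 3, the library with Xist, neither Nr1d1 nor Nr1d2 was called. The limma adjusted p was then 0.103 for Nr1d1 (0.0115 to 0.103 over the alternatives) and 0.140 for Nr1d2 (0.0143 to 0.141). The call on Nr1d2 was also lost without Cdk1 Liv-/- hepatocyte replicates 1 (0.123) and 3 (0.109) and whole liver replicates 1 (0.141) and 2 (0.110), and with no filter (0.115). Without hepatocyte replicate 2 there were 5 calls (41.4% of all genes). The median log2 difference of all genes in this comparison was -0.19. The markers of 5 cell types (Kupffer, sinusoidal endothelial, stellate, neutrophil and monocyte, and lymphocyte) were each called lower in hepatocytes for 10 of 10 genes, and those of cholangiocytes for 7 of 7. Of 12 glucocorticoid-responsive genes 5 were called higher in hepatocytes, and all 12 had a log2 difference above 0 (median 1.04). Their part in the Nr1d1 and Nr1d2 values was not tested.

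Within groups, several members moved against each other. Deviations from the group mean of log2(FPKM + 0.5) over the 12 libraries had a Pearson correlation of -0.82 between Arntl and Dbp (Spearman -0.66), 0.89 between Arntl and Cry1 (Spearman 0.75) and -0.71 between Cry1 and Dbp (Spearman -0.46). Between Cry1 and Nr1d2 it was -0.79 (Spearman -0.62). Without Cdk1 Liv-/- hepatocyte replicate 2, chosen after its values were seen, the Pearson values were -0.31, 0.11, 0.08 and -0.55 over 11 libraries. Cry2 and Nr1d1 had a correlation of 0.73 with that library and 0.70 without it, and Per2 and Cry1 -0.048 with it and -0.93 without it. These are descriptions, with no test. In Cdk1 Liv-/- hepatocytes the SD on the log2 scale was 0.64 for Dbp, where the 90th percentile over 5341 genes within the range of the members' mean levels was 0.42, and 3 members (Arntl, Per2 and Dbp) lay above that percentile. In WT hepatocytes 0 did, in WT whole liver 4 (Per1, Per3, Nr1d1 and Dbp) and in Cdk1 Liv-/- whole liver 2 (Per1 and Dbp).

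**Figure D3:**
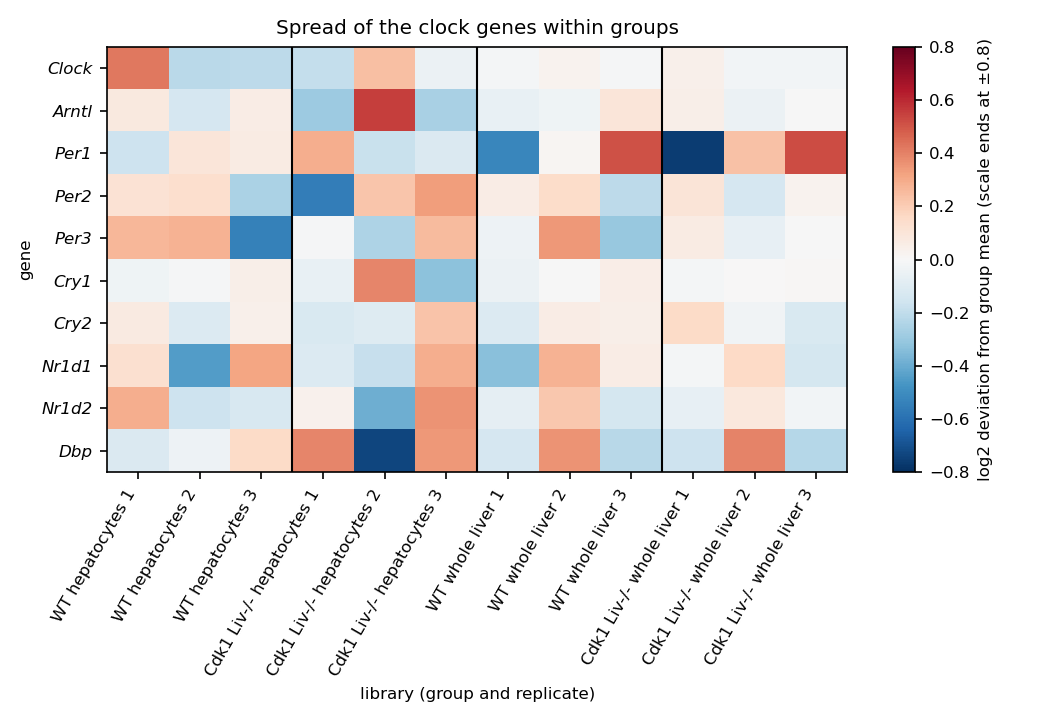
Deviation of each clock gene from its group mean on the log2(FPKM + 0.5) scale, in the 12 libraries, from blue (below) to red (above). In Cdk1 Liv-/- hepatocyte replicate 2 Arntl is above and Dbp below its group mean.

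The ratio of Dbp to Arntl was 3.07 and 2.92 in Cdk1 Liv-/- hepatocyte replicates 1 and 3 and 0.729 in replicate 2. In WT hepatocytes it was 0.963, 1.19 and 1.18, between these values. The ratio of Nr1d1 to Arntl was 2.33, 1.18 and 3.03 in Cdk1 Liv-/- hepatocytes and 0.645, 0.481 and 0.751 in WT hepatocytes, with no overlap. In whole liver the ratio of Nr1d1 to Arntl was 0.713, 1.11 and 0.859 in WT and 1.21, 1.48 and 1.15 in Cdk1 Liv-/-. These did not overlap, but 1.15 lay close to 1.11, and Nr1d1 itself did not pass there (adjusted p = 0.106 from limma). The genotypes did not overlap for 34% of all genes in hepatocytes and 52.1% in whole liver. No such share was obtained for ratios. The ratio of Dbp to Arntl in whole liver was 1.57, 2.20 and 1.31 in WT and 1.56, 2.51 and 1.55 in Cdk1 Liv-/-.

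**Figure D4:**
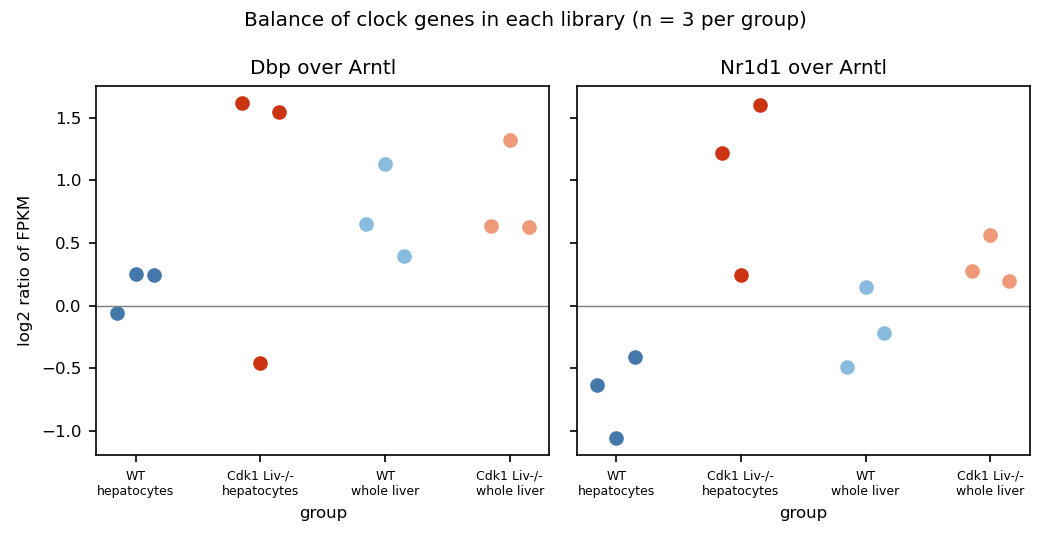
Log2 ratio of FPKM of Dbp to Arntl and of Nr1d1 to Arntl in each library, by group. In Cdk1 Liv-/- hepatocytes the Dbp ratio of replicate 2 is -0.46, while those of the other libraries are 1.62 and 1.55.

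The genes most like 3 members in their deviations were sought among 12281 genes whose FPKM averaged 1 or more. As the extremes of that many correlations over 12 libraries, high values of r can follow from the search alone. The genes were not picked anew without Cdk1 Liv-/- hepatocyte replicate 2, so the values without it are no independent check. All are descriptions, with no test. For Nr1d1 they were Rpia, Plac9b and 1110025M09Rik (Pearson r of 0.98, 0.97 and 0.96 over 12 libraries), and the most opposite were Vmo1, Cox18 and Iyd (-0.89, -0.89 and -0.87). For Dbp they were S100a4, Brap and Cirbp (0.96, 0.95 and 0.95), with Car14, Igf1 and Ercc8 opposite (-0.94, -0.91 and -0.90). For Arntl they were Gdap2, Fastkd5 and Stil (0.95, 0.95 and 0.94), with Glrx, Gch1 and Gm6710 opposite (-0.96, -0.96 and -0.95). Without Cdk1 Liv-/- hepatocyte replicate 2 the Nr1d1 values were between 0.96 and 0.98 for the most alike, those of Dbp between 0.87 and 0.89, and those of Arntl 0.73 for Gdap2, 0.47 for Fastkd5 and 0.24 for Stil. Among the opposite genes, the Arntl values without that library were -0.66 for Glrx, -0.65 for Gch1 and -0.44 for Gm6710. Those of Dbp were -0.87 for Car14, -0.80 for Igf1 and -0.75 for Ercc8, and those of Nr1d1 were -0.88 for Vmo1, Cox18 and Iyd.

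Of 22 other genes of the clock loop, 20 passed the filter, and Rorb was at 0 in 10 libraries. In hepatocytes 2 rose, 1 fell and 17 did not pass (15% called, 1 to 6 genes over the alternatives), where 18.7% of all genes were called. Cipc, which encodes a CLOCK-interacting repressor, was at 4.4, 4.79 and 4.26 FPKM in WT and at 7.88, 8.22 and 11.74 FPKM in Cdk1 Liv-/- hepatocytes. The groups did not overlap, and Cipc rose by 0.95 (adjusted p = 0.0211 from limma), called under all 14 alternatives. Nfil3, a repressor at D-boxes, rose by 0.47 (adjusted p = 0.0900 from limma, 0.0737 to 0.202 over the alternatives), and its call was lost with each of the 6 libraries left out. Fbxl21, a ubiquitin ligase subunit for CRY proteins, fell by 0.85 (adjusted p = 0.0856 from limma), and its call held under 9 of 14 alternatives and was lost without WT replicates 1 (0.211) and 2 (0.194) and Cdk1 Liv-/- replicates 1 (0.169) and 3 (0.203). Ciart, a repressor of CLOCK and ARNTL, was at 0.83, 1.25 and 1.01 FPKM in WT and at 2.86, 1.38 and 3.27 FPKM in Cdk1 Liv-/- hepatocytes, and did not pass (adjusted p = 0.101 from limma).

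In whole liver 9 of these 20 genes rose, 2 fell and 9 did not pass (55% called, 7 to 17 genes over the alternatives). Of all genes 45.6% were called, 38% higher and 7.53% lower. Csnk1e, a kinase of PER proteins, rose by 0.65, or 0.47 relative to the median of all genes (adjusted p = 0.0179 from limma). Arntl2, a relative of Arntl, rose by 0.51, or 0.33 relative to the median (adjusted p = 0.00966 from limma). Tef, a relative of Dbp, fell by 0.48 (adjusted p = 0.0257 from limma). These 3 calls held under all 14 alternatives. Bhlhe40, a repressor at E-boxes, rose by 0.53 (adjusted p = 0.0926 from limma, 0.0434 to 0.304 over the alternatives). Its log2 difference ran from 0.31 to 0.70 over the alternatives. The call on Bhlhe40 held under 6 of 14, and its losses included the fits without WT replicates 1 (0.138), 2 (0.222) and 3 (0.190) and Cdk1 Liv-/- replicates 2 (0.122) and 3 (0.155).

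Of 24 genes known as outputs of the clock in liver, 6 rose and 1 fell in hepatocytes (29.2% called, 3 to 10 genes over the alternatives), and 7 rose and 7 fell in whole liver (58.3%, 10 to 16 genes). The shares of all genes called were 18.7% in hepatocytes (12.1% higher, 6.61% lower) and 45.6% in whole liver (38% higher, 7.53% lower). Tsku, which encodes a secreted liver protein, was at 2.66, 2.8 and 3.78 FPKM in WT and at 28.47, 19.74 and 36.06 FPKM in Cdk1 Liv-/- hepatocytes. The groups lay far apart, with a rise of 2.97 (adjusted p = 0.00206 from limma), and Tsku also rose in whole liver, by 1.17 (adjusted p = 0.0234 from limma). Both calls held under all 14 alternatives. Cyp7a1, the rate-limiting enzyme of bile acid synthesis, rose by 1.16 in hepatocytes (adjusted p = 0.0435 from limma), called under 9 of 14 alternatives and lost without WT replicates 2 (0.102) and 3 (0.109) and Cdk1 Liv-/- replicate 3 (0.123). In whole liver Cyp7a1 was at 14.32, 18.5 and 18.44 FPKM in WT and at 9.69, 8.19 and 14.35 FPKM in Cdk1 Liv-/-. The groups overlapped there, and Cyp7a1 fell by 0.67 (adjusted p = 0.0592 from limma), called under 9 of 14 alternatives and lost without WT replicates 2 (0.154) and 3 (0.151) and Cdk1 Liv-/- replicates 1 (0.135) and 2 (0.129). Lpin1, a phosphatidate phosphatase, rose by 1.27 in hepatocytes (adjusted p = 0.0971 from limma, 0.0181 to 0.216 over the alternatives). Of the fits without 1 of the 6 hepatocyte libraries, only that without Cdk1 Liv-/- replicate 2 kept its call. Cyp2b10, a drug-metabolising enzyme, fell by 1.45 in hepatocytes (adjusted p = 0.0583 from limma), called under 7 of 14 alternatives and lost without WT replicates 1 (0.121), 2 (0.121) and 3 (0.143) and Cdk1 Liv-/- replicates 2 (0.145) and 3 (0.162), and by 1.97 in whole liver (adjusted p = 0.00514 from limma), called under all 14.

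Upp2, a uridine phosphorylase, was at 115.93, 97.72 and 119.3 FPKM in WT and at 12.49, 9.03 and 10.3 FPKM in Cdk1 Liv-/- whole liver. It fell by 3.33 there, with no overlap (adjusted p = 0.000179 from limma). Cyp2a5, another drug-metabolising enzyme, fell by 1.93 (adjusted p = 0.0116 from limma), and Insig2, a regulator of sterol synthesis, rose by 0.91, or 0.73 relative to the median of all genes (adjusted p = 0.00328 from limma). These 3 calls held under all 14 alternatives. In hepatocytes the genotypes overlapped for Upp2 (mean FPKM of 96.4 in WT, 102 in Cdk1 Liv-/-) and for Cyp2a5 (20.5 and 39.3), and neither gene passed the test there. Pdk4, a kinase of pyruvate dehydrogenase, rose by 1.19 in whole liver (adjusted p = 0.0828 from limma). Its call held under 6 of 14 alternatives and was lost without WT whole liver replicates 1 (0.215) and 2 (0.194) and Cdk1 Liv-/- whole liver replicates 1 (0.119), 2 (0.190) and 3 (0.108).

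Clock genes also respond to glucocorticoids, to immediate early signals and to temperature. Of 12 glucocorticoid-responsive genes 1 rose in hepatocytes (8.33%, 0 to 4 genes over the alternatives, beside 18.7% of all genes), Zbtb16, by 2.25 (adjusted p = 0.0463 from limma), called under 10 of 14 alternatives and lost without WT hepatocyte replicates 1 (0.122) and 2 (0.112) and Cdk1 Liv-/- hepatocyte replicate 2 (0.127). The log2 difference was above 0 for 9 of the 12, with a median of 0.70, and 0.049 for all genes. Their summed level was 1722.77, 1750.52 and 2089.65 FPKM in WT and 3081.47, 1598.23 and 3207.57 FPKM in Cdk1 Liv-/- hepatocytes. The sum of Cdk1 Liv-/- replicate 2 lay below every WT sum, and those of the other 2 lay above. Pck1 was the most abundant of these genes, and its mean was lower in Cdk1 Liv-/- than in WT hepatocytes (1045.78 against 1146.04 FPKM). So was that of Fkbp5 (23.69 against 30.76 FPKM). Means were higher for Mt1 (437.74 against 147.86 FPKM), Mt2 (386.42 against 75.18 FPKM) and Tat (514.59 against 297.04 FPKM), among others. For Mt1 and Mt2 the genotypes overlapped. The sum thus reflects mainly a few abundant genes. In whole liver 1 rose and 1 fell (16.7%, 0 to 3 genes over the alternatives, beside 45.6% of all genes), Dusp1 by 0.75 and Klf9, which fell by 0.42 (adjusted p = 0.0816 and 0.0983 from limma), each called under 6 of 14. The call on Dusp1 was lost without WT replicates 1 (0.180) and 2 (0.190) and Cdk1 Liv-/- replicates 1 (0.144), 2 (0.181) and 3 (0.149), and that on Klf9 without WT replicates 1 (0.235), 2 (0.10003) and 3 (0.229) and Cdk1 Liv-/- replicates 1 (0.154) and 2 (0.181).

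Of 23 immediate early genes, which respond to stimuli within minutes, 9 rose and 1 fell in hepatocytes (43.5%, 6 to 12 genes over the alternatives, beside 18.7% of all genes), and 20 rose in whole liver (87%, 16 to 21 genes, beside 45.6%). Their summed level was 397.38, 208.72 and 192.44 FPKM in WT and 592.6, 455.95 and 463.12 FPKM in Cdk1 Liv-/- hepatocytes, with Zfp36 the most abundant. In whole liver it was 102.43, 115.95 and 157.52 FPKM in WT and 300.54, 377.17 and 239.37 FPKM in Cdk1 Liv-/-. The sums of the genotypes did not overlap in either compartment. Fos rose by 2.03 and Atf3 by 1.98 in hepatocytes (adjusted p = 0.0283 and 0.00970 from limma), and Klf2 fell by 1.51 (adjusted p = 0.0257 from limma). Sinusoidal endothelial genes had a median log2 difference of -1.61 in the same libraries, where that of all genes was 0.049. The part of cell makeup in the fall of Klf2 was not tested. In whole liver Ier3 rose by 2.75, Atf3 by 2.58 and Jun by 2.27 (adjusted p = 0.00196, 0.0155 and 0.00312 from limma). These 6 calls held under all 14 alternatives. Ier3 also rose in hepatocytes, by 1.48 (adjusted p = 0.0706 from limma), called under 9 of 14 and lost without WT hepatocyte replicates 1 (0.184) and 2 (0.156) and Cdk1 Liv-/- hepatocyte replicates 1 (0.164) and 3 (0.190).

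Of 13 heat shock and cold-inducible genes 3 rose and 2 fell in hepatocytes (38.5%, 2 to 6 genes over the alternatives, beside 18.7% of all genes), and 7 rose and 2 fell in whole liver (69.2%, 6 to 11 genes, beside 45.6%). Hspb1, a small heat shock protein gene, was at 0.15, 0.12 and 0.25 FPKM in WT and at 2.68, 0.73 and 2.46 FPKM in Cdk1 Liv-/- hepatocytes. The groups did not overlap, and Hspb1 rose by 1.75 (adjusted p = 0.0367 from limma), called under 11 of 14 alternatives and lost without WT replicate 1 (0.116) and Cdk1 Liv-/- replicate 3 (0.107). It also rose in whole liver, by 2.04 (adjusted p = 0.000251 from limma), as did Hspa1b, an inducible HSP70 gene, by 0.78 (adjusted p = 0.0268 from limma). In hepatocytes Hsp90aa1, a chaperone gene, rose by 0.97 (adjusted p = 0.0159 from limma). Hspa8, a constitutive HSP70 gene, rose by 0.43 there (adjusted p = 0.0594 from limma), called under 8 of 14 and lost without WT replicates 1 (0.170) and 2 (0.157) and Cdk1 Liv-/- replicate 1 (0.113). Hspe1 and Hspd1, mitochondrial chaperonin genes, fell in whole liver by 0.25 and 0.21 (adjusted p = 0.0137 and 0.0172 from limma). Over the alternatives these log2 differences ran from -0.47 to -0.22 for Hspe1 and from -0.43 to -0.20 for Hspd1. The whole liver calls on Hspb1, Hspa1b, Hspe1 and Hspd1 and the hepatocyte call on Hsp90aa1 held under all 14 alternatives. Rbm3, a cold-inducible RNA-binding protein gene, was at 95.89, 91.32 and 91.64 FPKM in WT and at 61.87, 66.52 and 61.77 FPKM in Cdk1 Liv-/- hepatocytes. It fell by 0.55 (adjusted p = 0.00650 from limma). In whole liver it was at 94.85, 94.26 and 92.19 FPKM in WT and at 120.16, 157.07 and 137.43 FPKM in Cdk1 Liv-/-, and rose by 0.55, or 0.37 relative to the median of all genes (adjusted p = 0.0119 from limma). The genotypes did not overlap for Rbm3 in either compartment, and both of its calls held under all 14 alternatives. Cirbp, its relative, fell by 0.50 in hepatocytes (adjusted p = 0.0439 from limma), called under 11 of 14 alternatives and lost without WT replicates 1 (0.125) and 3 (0.109). In whole liver Cirbp was at 24.76, 26.76 and 24.91 FPKM in WT and at 29.52, 32.59 and 30.15 FPKM in Cdk1 Liv-/-. The groups did not overlap there, and Cirbp rose by 0.27, or 0.085 relative to the median of all genes (adjusted p = 0.0221 from limma), called under 13 of 14 alternatives and lost with size factors (0.470). The part of these genes in the clock gene results was not tested.

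Markers of the cell types of the liver also differed between the groups. The shares of all genes to set beside their counts are 12.1% called higher and 6.61% lower in hepatocytes, and 38% higher and 7.53% lower in whole liver. In hepatocytes of Cdk1 Liv-/- mice 9 of 10 sinusoidal endothelial genes fell, and their sum was 183.56, 126.36 and 351.25 FPKM in WT and 87.22, 55.97 and 65.74 FPKM in Cdk1 Liv-/-, with Stab1 most abundant over the 12 libraries. The Kupffer cell sum was 365.26, 198.31 and 667.83 FPKM in WT and 222.01, 164.05 and 143.15 FPKM in Cdk1 Liv-/- hepatocytes, with 1 of 10 genes called lower and Cd5l most abundant over the 12 libraries. Stellate cell and fibroblast genes summed to 259.99, 155.31 and 563.64 FPKM in WT and to 149.13, 131.08 and 118.03 FPKM in Cdk1 Liv-/- hepatocytes, with 2 of 10 lower and Col3a1 most abundant over the 12 libraries. In whole liver the stellate cell sum was 574.62, 572.46 and 644.09 FPKM in WT and 993.9, 1211.27 and 940.56 FPKM in Cdk1 Liv-/-, with 6 of 10 genes higher and 1 lower. Neutrophil and monocyte genes summed to 74.91, 47.11 and 71.32 FPKM in WT and to 95.83, 318.46 and 260 FPKM in Cdk1 Liv-/- whole liver, with 7 of 10 higher and S100a9 most abundant, and in hepatocytes to 14.85, 12.88 and 51.43 FPKM in WT and 22.71, 11.81 and 21.66 FPKM in Cdk1 Liv-/-, with 1 of 10 higher. The whole liver sums were 181.37, 210.93 and 251.56 FPKM in WT and 227.45, 286.81 and 229.11 FPKM in Cdk1 Liv-/- for endothelial genes, with 2 higher, and 522.43, 577.45 and 583.54 FPKM in WT and 666.91, 902.4 and 695.81 FPKM in Cdk1 Liv-/- for Kupffer cell genes, with 4 higher.

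The 12 hepatocyte genes, led by Alb, had 3 higher and 2 lower in hepatocytes and 6 lower in whole liver, and summed to 86656.7, 95335.3 and 89993.4 FPKM in WT and 62945.7, 62696.4 and 59493.6 FPKM in Cdk1 Liv-/- hepatocytes, and 90116.1, 88402.5 and 90919.1 FPKM in WT and 71021, 63514.1 and 69334.4 FPKM in Cdk1 Liv-/- whole liver. Cholangiocyte genes, led by Spp1, had 5 of 7 higher in each compartment, and summed to 29.23, 24.02 and 38.78 FPKM in WT and 74, 132.74 and 109.78 FPKM in Cdk1 Liv-/- hepatocytes, and 71.13, 75.67 and 57.81 FPKM in WT and 286.63, 152.46 and 275.07 FPKM in Cdk1 Liv-/- whole liver. Erythroid genes, led by Hbb-bs, had 2 of 8 lower in hepatocytes and 3 of 8 lower in whole liver, and summed to 147.57, 108.98 and 582.93 FPKM in WT and 72.49, 100.41 and 24.72 FPKM in Cdk1 Liv-/- hepatocytes, and 1105.83, 1231.39 and 2172.06 FPKM in WT and 1165.99, 1768.84 and 1456.36 FPKM in Cdk1 Liv-/- whole liver. Lymphocyte genes, of which Gzma was most abundant over the 12 libraries, had 5 of 10 and 3 of 10 lower, and summed to 6.63, 4.25 and 11.42 FPKM in WT and 2.03, 1.45 and 1.47 FPKM in Cdk1 Liv-/- hepatocytes, and 22.28, 26.86 and 21.76 FPKM in WT and 11.2, 20.37 and 14.76 FPKM in Cdk1 Liv-/- whole liver. Of the markers in the table, Ly6g was at 0 in 3 libraries and Cftr in 1. In bulk RNA fewer cells of a type and less RNA per cell cannot be told apart. The part of the cell makeup in the clock gene results was not tested.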

How the data were processed

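The members and gene lists were chosen with earlier results of these data known. The authors made polyadenylated, stranded libraries, sequenced single-end reads of 75 bp, aligned them with STAR and quantified genes with RSEM 1.2.31 on mm10, per the labels, and deposited FPKM to 2 decimals with no normalization between libraries. After adding 0.5 to each FPKM and taking log2, 17386 genes averaging 0.1 FPKM or more were tested two-sided in R 4.3.3 (limma 3.58.1, moderated variances with a mean trend), adjusted by Benjamini-Hochberg over all of them, with calls at 0.1 or less. A fold change on this scale understates low genes. The interaction used all 12 libraries. The fits were tested on simulated data. Depth was estimated from the steps of low FPKM values in short genes, where 56.2% to 63.2% of values lay within 0.1 reads of a whole number (14.5% to 16.2% at other steps), so count tests were not run. Named genes are the members, Cdk1, sex-linked genes, up to 3 called genes per direction of each list, the genes most alike, and, chosen after values were seen, Ciart, Thra, Camta1 and the whole liver values of Cyp7a1 and Cirbp. With 3 libraries against 3, an exact permutation p cannot go below 0.1. Alternatives were 2 other pseudocounts, 2 filters, size factors, no trend, the replicate number as a term, a 2-sample test with q-values and leaving out each library. Positions are from GENCODE M21 and promoters from RefSeq.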

Additional observations from a re-analysis of the deposited data

Results flagged for a closer look

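The genotype difference of Nr1d1 was larger in isolated hepatocytes than in whole liver by 1.02 on the log2 scale (adjusted p = 0.0871 from the limma interaction). It was singled out because the effects in the 2 compartments differed by a test of the difference itself. The direction held in all 19 alternatives and the call in 8 of them. Isolation of the cells, their makeup and a difference in the time of collection cannot be told apart from the compartment.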

How the results depend on the processing

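The counts of clock genes called were 2, 2, 1, 0 and 2 for genotype in hepatocytes, genotype in whole liver, the difference between compartments, and compartment in WT and in Cdk1 Liv-/-. With no filter on low values they were 1, 2, 0, 0 and 1, where more genes were tested, beside 8.40%, 25.9%, 3.27%, 1.27% and 27.8% of all genes. With size factors they were 2, 4, 1, 0 and 5, where 18%, 34.2%, 5.98%, 0.454% and 41.5% of all genes were called. By a 2-sample test with q-values they were 2, 5, 0 and 3 where it was run, beside 22.8%, 61.1%, 1.97% and 59.1% of all genes. Leaving out 1 library gave, in the same order without WT, 1 to 4, 2 to 3, 0 to 3 and 0 to 5, and 0 in every such fit for WT. The shares of all genes in those fits were 8.97% to 14.4%, 30.9% to 43.1%, 0.449% to 15.2% and 32.9% to 43.7%. For WT they were 0.00575% to 17.7%. With a replicate block the counts were 1, 3, 0, 0 and 2, beside 8.37%, 38.0%, 3.77%, 0% and 35.9% of all genes. The numbers were not read as pairing, since the correlation of deviations between same-numbered libraries ran from -0.32 to 0.24 over 18 pairs of libraries. A filter at a mean FPKM of 1 gave 2, 3, 1, 0 and 2, beside 22.6%, 54.6%, 12.1%, 0.725% and 47.4% of all genes. Other pseudocounts and a fit without trend left these counts as they were. For genotype in hepatocytes, the log2 difference changed sign among the fits without 1 library for Clock (-0.018 to 0.31), Per2 (-0.040 to 0.40) and Cry2 (-0.16 to 0.018). For genotype in whole liver, the log2 difference changed sign among the fits without 1 library for Per1 (-0.21 to 0.43), Per2 (-0.11 to 0.065), Nr1d2 (-0.056 to 0.12) and Dbp (-0.14 to 0.23). With size factors it changed sign there for Clock (-0.12), Per1 (-0.16), Nr1d2 (-0.19) and Dbp (-0.16), and for Thra, which overlaps Nr1d1 (-0.0036). For the difference between compartments, the log2 difference changed sign among the fits without 1 library for Clock (-0.088 to 0.24), Arntl (-0.36 to 0.060), Per1 (-0.62 to 0.022) and Per2 (-0.031 to 0.41). With size factors it changed sign there for Arntl (0.049). Between compartments in WT, the log2 difference changed sign among the fits without 1 library for Arntl (-0.014 to 0.093), Per3 (-0.29 to 0.13), Cry2 (-0.0039 to 0.11) and Nr1d2 (-0.14 to 0.11). Between compartments in Cdk1 Liv-/-, the log2 difference changed sign among the fits without 1 library for Arntl (-0.34 to 0.084), Per1 (-0.32 to 0.33) and Dbp (-0.22 to 0.34). With size factors it changed sign there for Arntl (0.19) and Dbp (0.24). The cause of these changes was not tested. The depth behind single values was estimated, and covers counting error only.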
